A study of Mus musculus with 4 samples.

Results

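The genes described here are 10 core genes of the Wnt/β-catenin pathway, selected by symbol and role from the 39179 mouse genes listed for each library. They comprise β-catenin itself (*Ctnnb1*), the TCF/LEF transcription factors (*Lef1*, *Tcf7*, *Tcf7l1* and *Tcf7l2*), the scaffolds of the β-catenin destruction complex (*Axin1*, *Axin2* and *Apc*) and the ubiquitin ligases that remove Wnt receptors (*Rnf43* and *Znrf3*). An Ensembl identifier was found for each of the 10 symbols. RNA was sequenced from 4 libraries of the B16F1 mouse melanoma cell line. In this set, 2 libraries were made from parental control cells and 2 from tumor repopulating cells (TRCs), which are the cells recovered from spheroids that grew out of single B16F1 cells in soft fibrin gels. No allele, transgene or drug separated the groups. The parental cells stood for conventional culture on rigid dishes, so growth in the gel and selection by the gel cannot be told apart, and 1 cell line was used. Samples are numbered 1 and 3 within each group, and the sources used here do not say whether they came from separate cultures, so p-values measure the spread between these libraries, which may be technical.

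In the absence of a Wnt signal, AXIN and APC hold β-catenin for phosphorylation and degradation. When a Wnt ligand engages a Frizzled receptor and the coreceptors LRP5 or LRP6, this complex is inactivated, β-catenin accumulates and enters the nucleus, and there it turns TCF/LEF factors from repressors into activators. *Axin2*, *Rnf43*, *Znrf3*, *Lef1* and *Tcf7* are themselves known targets in many tissues, and the first 3 act as negative feedback. β-catenin also links cadherins to the actin cytoskeleton, and in pigment cells the pathway is known for its part in melanocyte specification. The control of β-catenin is mainly on the protein, which was not measured here.

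Each library held between 35948295 and 43511554 counts on genes. Between 15.2% and 25.2% of alignments were not unique and were assigned to no gene, with the highest share in TRC replicate 3. Both groups expressed melanocyte markers, with a summed level of the 7 markers from 15712 to 26669 CPM (counts scaled to a common library size by TMM). In contrast, 4 of 6 leukocyte markers, 2 of 4 endothelial markers and 2 of 3 keratinocyte markers had 0 counts in every library, and the summed level of each of these lists was at most 0.855 CPM. The 5 fibroblast markers summed to 9.83 to 11.4 CPM in parental cells and 3.10 to 5.65 CPM in TRCs. Of the 3 that were tested, 1 was called at an FDR under 0.05, beside 15.9% of all genes tested. This was *Col1a2*, with 6.70 and 7.79 CPM in the parental libraries and 1.52 and 1.01 CPM in the TRCs (exact test, FDR = 4.15e-06). *Col1a1* (exact test, FDR = 0.768) and *Pdgfra* (FDR = 0.915) overlapped between the groups. In these bulk samples, fewer cells of a type and less RNA per cell cannot be told apart.

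The question addressed was whether messages of this pathway differed between TRCs and parental cells. Of the 10 genes, 8 passed the filter on low counts, and 2, *Lef1* and *Rnf43*, did not. In edgeR's exact test 1 of the 8 genes was differentially expressed at a Benjamini-Hochberg FDR under 0.05 over all genes tested. This was *Axin1*, which was lower in TRCs, where 7.05% of all 11483 genes tested were called lower, 8.81% were called higher and 15.9% were called in either direction. The number of genes called is thus near the background share. Among the 8 genes, 3 lay higher and 5 lower in TRCs, and their median on the log2 scale was −0.24, beside a median of 0.003 over all genes tested. In 5 of the 8 genes the groups did not overlap, with TRCs above in 2 and below in 3, and over all genes tested this was found for 60.6%, with TRCs above in 30.2% and below in 30.4%.

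**Figure D1:**
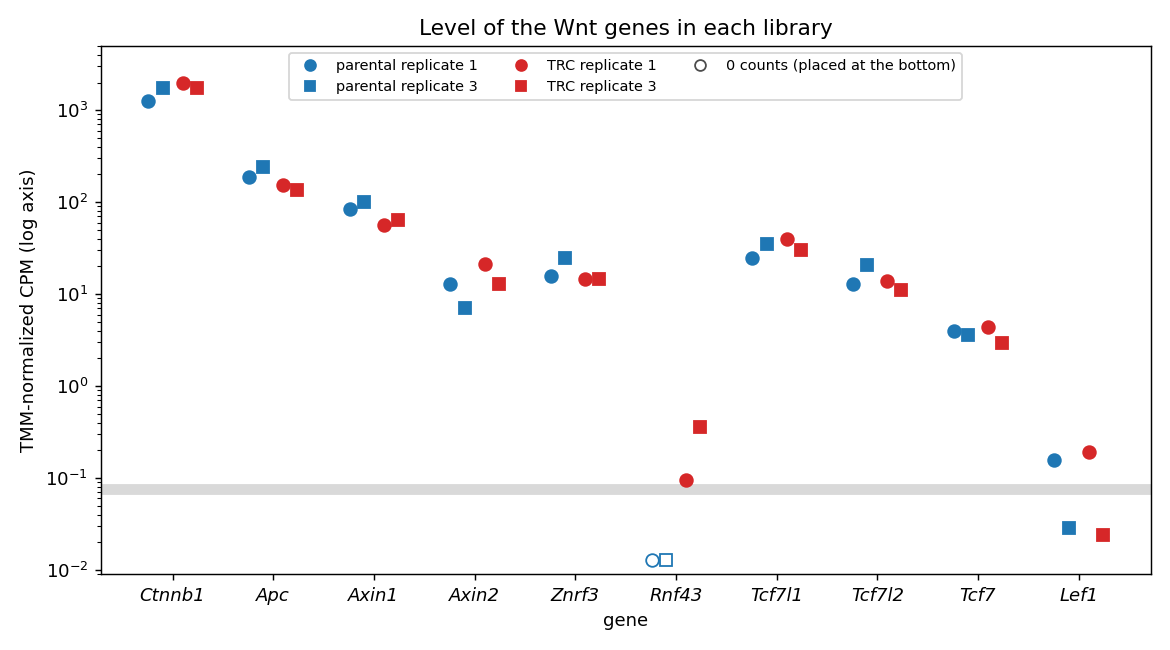
Level of each of the 10 Wnt genes in each library, as TMM-normalized CPM on a log axis, with blue for parental cells, red for TRCs, circles for replicate 1 and squares for replicate 3. Open symbols at the bottom mark 0 counts, and the gray band spans the level of 3 counts in the 4 libraries (0.0675 to 0.085 CPM). *Ctnnb1* lies between 1273 and 1988 CPM. The highest value of *Lef1* is 0.192 CPM, in TRC replicate 1, and that of *Rnf43* is 0.361 CPM, in TRC replicate 3. Both lie above the gray band.

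*Ctnnb1* (ENSMUSG00000006932, GRCm38 chromosome 9 from 120929216 to 120960507) encodes β-catenin and was the most abundant of these messages per length of transcript. It had 1273 and 1746 CPM in parental replicates 1 and 3, and 1988 and 1749 CPM in TRC replicates 1 and 3. The lower TRC library lay just above the higher parental library, so the groups were separated by less than the distance between the replicates of either group. The log2 fold change was 0.31, and the gene did not pass the test (edgeR's exact test, FDR = 0.438). DESeq2 gave a standard error (SE) of 0.23 and a 95% interval of the log2 fold change from −0.14 to 0.76, which is an interval of this gene alone, without adjustment. Scaled per kilobase (kb) of merged exons, the mean level of *Ctnnb1* lay at the 99.2th percentile of the genes tested.

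*Axin1* (ENSMUSG00000024182, chromosome 17 from 26138688 to 26195811) encodes the constitutive scaffold on which the destruction complex is assembled. Its level was 84.5 and 99.6 CPM in parental replicates 1 and 3, against 55.9 and 64.8 CPM in the respective TRC libraries. Both TRC libraries lay below both parental libraries. The mean fell from 92.1 ± 10.7 CPM (n = 2, SD) to 60.3 ± 6.30 CPM (n = 2, SD), which is −0.61 on the log2 scale (SE 0.22, FDR = 0.0467 in edgeR's exact test). This call lies close to the threshold. It was lost in edgeR's quasi-likelihood test (FDR = 0.0708), without the filter on low counts (FDR = 0.0594), and in the exact test without parental replicate 3 (FDR = 0.29), TRC replicate 1 (FDR = 0.362) or TRC replicate 3 (FDR = 0.144), while the log2 fold change stayed between −0.73 and −0.49.

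*Apc* (ENSMUSG00000005871, chromosome 18 from 34220924 to 34322552) encodes the large tumor suppressor that works with AXIN in the same complex. It had 186 and 244 CPM in parental replicates 1 and 3, and 155 and 137 CPM in TRC replicates 1 and 3. The groups did not overlap, with TRCs below. The log2 fold change was −0.56 (SE 0.22), with a DESeq2 95% interval from −0.999 to −0.12, and it did not pass the threshold (exact test, p = 0.0195 unadjusted, FDR = 0.0948). Without parental replicate 1 it passed (FDR = 0.0388, log2 fold change −0.74). It did not pass without parental replicate 3 (−0.35, FDR = 0.549), TRC replicate 1 (−0.67, FDR = 0.218) or TRC replicate 3 (−0.48, FDR = 0.438). Thus 2 of the 8 genes tested, *Axin1* and *Apc*, had an unadjusted p under 0.05, a share of genes that was 28% over all genes tested.

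*Axin2* (ENSMUSG00000000142, chromosome 11 from 108920349 to 108950783) encodes the inducible relative of AXIN1 and is the feedback gene most often read as a sign of active signaling. Its level was 12.8 and 7.08 CPM in parental replicates 1 and 3, and 21.4 and 12.9 CPM in TRC replicates 1 and 3. The higher parental library and the lower TRC library were almost equal. The mean was 9.94 ± 4.04 CPM (n = 2, SD) in parental cells and 17.1 ± 6.03 CPM (n = 2, SD) in TRCs, which is 0.78 on the log2 scale (SE 0.39). It did not pass the exact test (p = 0.0523 unadjusted, FDR = 0.184), and the DESeq2 95% interval ran from 0.02 to 1.55. The value depended on single libraries. Without parental replicate 1 the log2 fold change was 1.27 and passed the test (FDR = 0.0415), whereas without parental replicate 3 it was 0.42 (FDR = 0.708), without TRC replicate 1 it was 0.35 (FDR = 0.785) and without TRC replicate 3 it was 1.09 (FDR = 0.16).

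**Figure D2:**
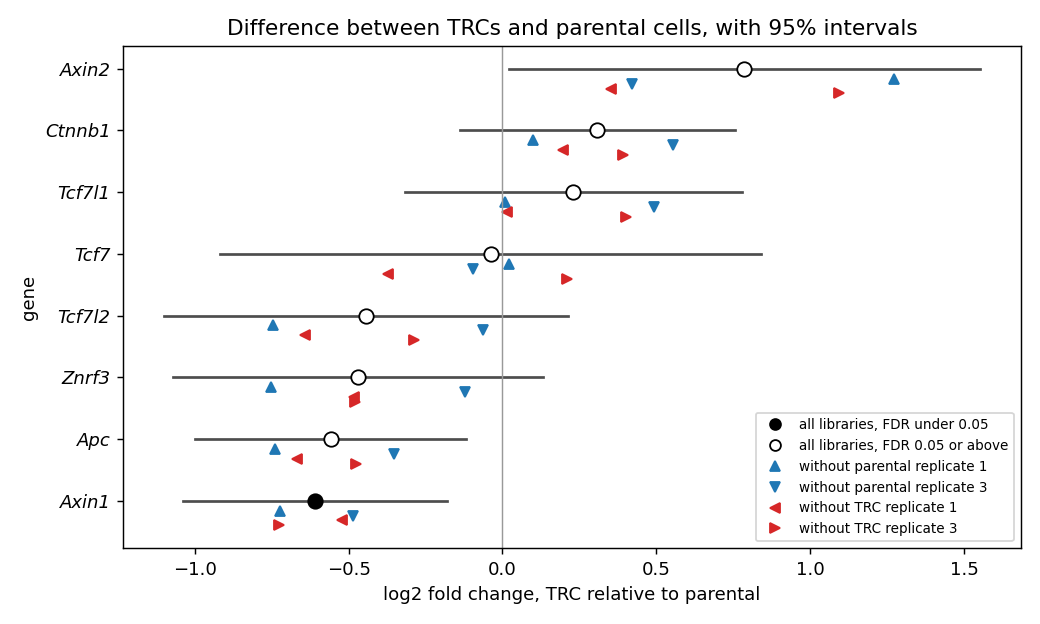
Log2 fold change of TRCs relative to parental cells for the 8 Wnt genes tested, with DESeq2 values as large circles, their 95% intervals as lines and the value of the exact test with each library left out as triangles. The filled circle marks *Axin1*, the gene with FDR under 0.05, and the triangles of *Axin2* spread from 0.35 to 1.27.

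The scaffolds were also compared with each other within each library, on levels per kb of merged exons, which does not depend on the scaling between libraries. *Axin1* exceeded *Axin2* by 9.49 and 20.2 times in parental replicates 1 and 3, but by 3.76 and 7.25 times in TRC replicates 1 and 3. The log2 ratio of *Axin2* to *Axin1* was −3.79 ± 0.77 (SD, n = 2) in parental cells and −2.38 ± 0.67 (SD, n = 2) in TRCs, a difference of 1.41. The groups did not overlap in this ratio, although the SD within groups was large relative to the difference, and an exact permutation test of 2 against 2 libraries cannot give a two-sided p below 0.333. A ratio chosen after the values were seen, that of *Apc* to *Ctnnb1*, varied less between replicates. *Ctnnb1* exceeded *Apc* per kb by 21.2 and 22.2 times in parental cells, and by 39.7 times in both TRC libraries. The ratio of *Axin1* to *Ctnnb1*, chosen in the same way, varied more than that. *Ctnnb1* exceeded *Axin1* per kb by 11.1 and 12.9 times in parental cells, and by 26.2 and 19.9 times in TRCs.

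The ligases *Rnf43* and *Znrf3* encode paralogous membrane proteins that ubiquitinate Frizzled receptors and so lower the sensitivity of a cell to Wnt. *Znrf3* (ENSMUSG00000041961, chromosome 11 from 5276324 to 5444847) had 15.8 and 24.5 CPM in parental replicates 1 and 3, and 14.5 CPM in both TRC libraries. The groups did not overlap, but parental replicate 1 lay close to the TRCs. Its log2 fold change of −0.47 (SE 0.31) did not pass the exact test (FDR = 0.37), with a DESeq2 95% interval from −1.07 to 0.13.

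*Rnf43* (ENSMUSG00000034177, chromosome 11 from 87662722 to 87735539) had 0 counts in both parental libraries, 4 counts in TRC replicate 1 and 15 counts in TRC replicate 3. These are 0.0962 and 0.361 CPM in TRCs, where 3 counts, the smallest number taken as detectable, stand for 0.0675 and 0.085 CPM in the parental libraries. The mean of the TRCs was 2.995 times the mean of that floor in the parental libraries. This is no strict bound, since the counting error of the TRC libraries is not included. The value rests on TRC replicate 3, since TRC replicate 1 alone gave 1.26 times and TRC replicate 3 alone 4.73 times the floor. When no filter on low counts was applied, *Rnf43* passed the exact test over 19571 genes (FDR = 0.0137), of which 8.52% were called and 4.63% were called higher. The fitted size of the change is no bound either, and the call rests on 19 counts in all. Where *Rnf43* was detected, the level of *Znrf3* per kb was 125 times higher in TRC replicate 1 and 33.5 times higher in TRC replicate 3. *Znrf3* was thus the main one of the 2 ligases at the mRNA level in each library.

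TCF/LEF factors bind the same DNA word in the minor groove through a high mobility group box, but differ in use. *Tcf7l1* is known mainly as a repressor, *Tcf7l2* as a widely used partner of β-catenin, and *Tcf7* and *Lef1* are often induced by the pathway. None of the 3 genes tested passed the test, and *Lef1* was too low to be tested. *Tcf7l1* (ENSMUSG00000055799, chromosome 6 from 72626378 to 72789254) had 24.8 and 34.7 CPM in parental replicates 1 and 3, and 39.5 and 30.4 CPM in TRC replicates 1 and 3, with a log2 fold change of 0.23 (exact test, FDR = 0.639, DESeq2 95% interval −0.32 to 0.78). *Tcf7l2* (ENSMUSG00000024985, chromosome 19 from 55741820 to 55933654) had 13.0 and 20.9 CPM in parental cells, and 13.9 and 10.96 CPM in TRCs. Its log2 fold change was −0.44 (exact test, FDR = 0.448, DESeq2 95% interval −1.10 to 0.21). For both genes the libraries of the groups overlapped.

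*Tcf7* (ENSMUSG00000000782, chromosome 11 from 52252371 to 52283014) had 3.94 and 3.63 CPM in parental replicates 1 and 3, and 4.40 and 2.96 CPM in TRC replicates 1 and 3. The TRC values enclosed the parental ones. The log2 fold change was −0.04, with a DESeq2 95% interval from −0.92 to 0.84 (exact test, FDR = 0.972), and its sign turned when parental replicate 1 (0.02) or TRC replicate 3 (0.21) was left out. *Lef1* (ENSMUSG00000027985, chromosome 3 from 131110471 to 131224356) had 7 counts in parental replicate 1 and 8 in TRC replicate 1, and a single count in each replicate 3 library. Within each group the library numbered 1 held more, and those numbered 3 lay below the detectable level of 3 counts. A difference of *Lef1* between the groups was not detectable at this depth.

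Per kb of merged exons, *Tcf7l1* made up 67.8% and 70.2% of the summed TCF/LEF level in parental replicates 1 and 3, against 75.4% and 76.5% in the respective TRC libraries. *Tcf7l2* held 15.9% and 18.8% in parental cells, and 11.9% and 12.3% in TRCs. *Tcf7* held 16.1% and 10.95% in parental cells, and 12.6% and 11.1% in TRCs, and *Lef1* held at most 0.192% in any library. The parental and TRC libraries did not overlap in the shares of *Tcf7l1* and *Tcf7l2*, and they overlapped for *Tcf7* and *Lef1*. The difference of means was 6.93 percentage points for *Tcf7l1*. The shares of a library add up to the whole, so the rise of *Tcf7l1* and the fall of *Tcf7l2* are not separate results. In CPM the groups overlapped for both of these genes. With 2 libraries per group, an exact permutation test cannot give a two-sided p below 0.333. It therefore cannot decide whether the shares differ between the groups. *Tcf7* and *Tcf7l2* were close to each other in TRCs, so their order is not firm. When the longest transcript of each gene stood in for merged exons, the share of *Tcf7l2* was 28.3% in parental cells and 20.5% in TRCs, and *Tcf7l1* still held 61.5% and 70.3%.

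**Figure D3:**
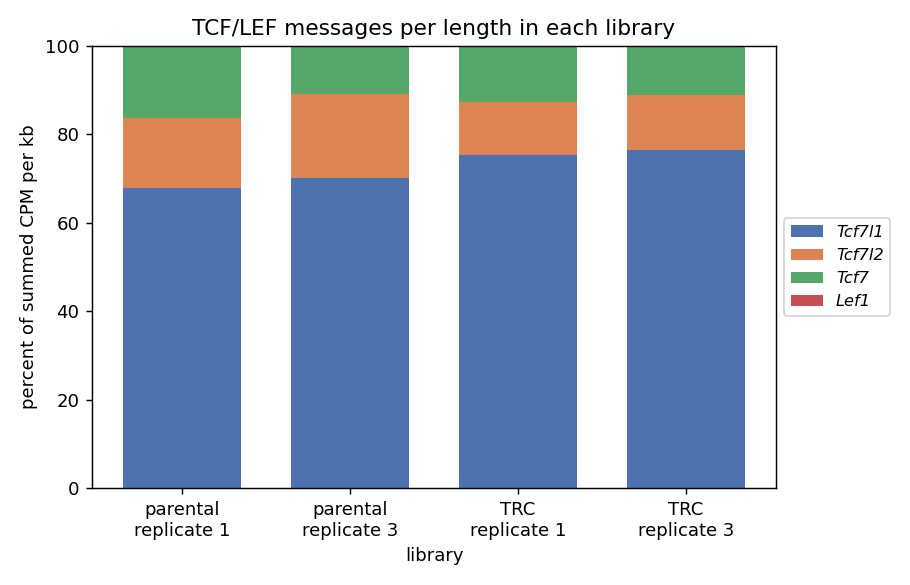
Share of each TCF/LEF gene in the summed level per kb of merged exons, in percent, as 1 stacked bar for each library. *Tcf7l1* fills 67.8% to 76.5% of each bar, and *Lef1*, at most 0.192%, is too small to see.

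The reference sequence next to the start sites is shown for *Axin2*, as the feedback gene with the largest positive change among the genes tested, and for *Lef1* and *Tcf7l2*, as the TCF/LEF gene at the floor and one that was expressed. Each is the stretch of 250 bases before a RefSeq start site in GRCm38.p6, written 5′ to 3′ on the plus strand, where all 3 genes lie, with CpG dinucleotides in capitals. The stretches lie at chr11:108920099-108920348 for *Axin2*, chr3:131110047-131110296 for *Lef1* and chr19:55741560-55741809 for *Tcf7l2*, and each lies before the first base of its gene in the GENCODE annotation.
Axin2: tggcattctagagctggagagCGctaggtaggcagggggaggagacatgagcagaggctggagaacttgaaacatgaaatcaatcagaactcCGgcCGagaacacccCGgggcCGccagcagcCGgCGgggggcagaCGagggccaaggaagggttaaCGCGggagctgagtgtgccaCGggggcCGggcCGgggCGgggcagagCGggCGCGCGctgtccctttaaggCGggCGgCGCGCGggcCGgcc
Lef1: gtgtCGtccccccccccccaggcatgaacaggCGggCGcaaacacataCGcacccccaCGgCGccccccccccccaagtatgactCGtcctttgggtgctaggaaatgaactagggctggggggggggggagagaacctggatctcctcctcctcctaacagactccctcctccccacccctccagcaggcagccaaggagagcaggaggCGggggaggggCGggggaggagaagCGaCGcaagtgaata
Tcf7l2: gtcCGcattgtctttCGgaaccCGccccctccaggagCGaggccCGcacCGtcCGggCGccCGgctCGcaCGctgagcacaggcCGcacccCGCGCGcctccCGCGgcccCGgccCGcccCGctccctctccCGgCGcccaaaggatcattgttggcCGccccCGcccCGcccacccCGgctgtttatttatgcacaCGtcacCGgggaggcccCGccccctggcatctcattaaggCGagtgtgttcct

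The *Axin2* stretch holds 24 CpG dinucleotides, that of *Tcf7l2* 30 and that of *Lef1* 11. RefSeq start sites were found for 7 of the 10 genes, with 14 windows of 300 bases (250 before the start and 50 after), and were missing for *Axin1*, *Apc* and *Znrf3*. The TCF/LEF words CTTTGAT and CTTTGAA, searched on both strands, were in 0 of these 14 windows, some of which overlap. Over all 32851 windows of that length, 8.65% hold at least one of the words. The absence of these letters in such short windows says nothing of other forms of the word or of binding at other positions.

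Other genes of the pathway were grouped by role. The 8 lists held 124 genes other than the 10, and 51 of these did not pass the filter. Of the 73 tested, 6 were called higher and 3 lower, 9 in all, and the median log2 fold change was 0.076. As a share, 9 of 73 is no larger than the 15.9% over all genes tested. *Porcn*, called higher, passed the filter only through the TRCs. When at least 1 CPM was required in at least 3 samples, 8 were called, without *Porcn*.

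**Figure D4:**
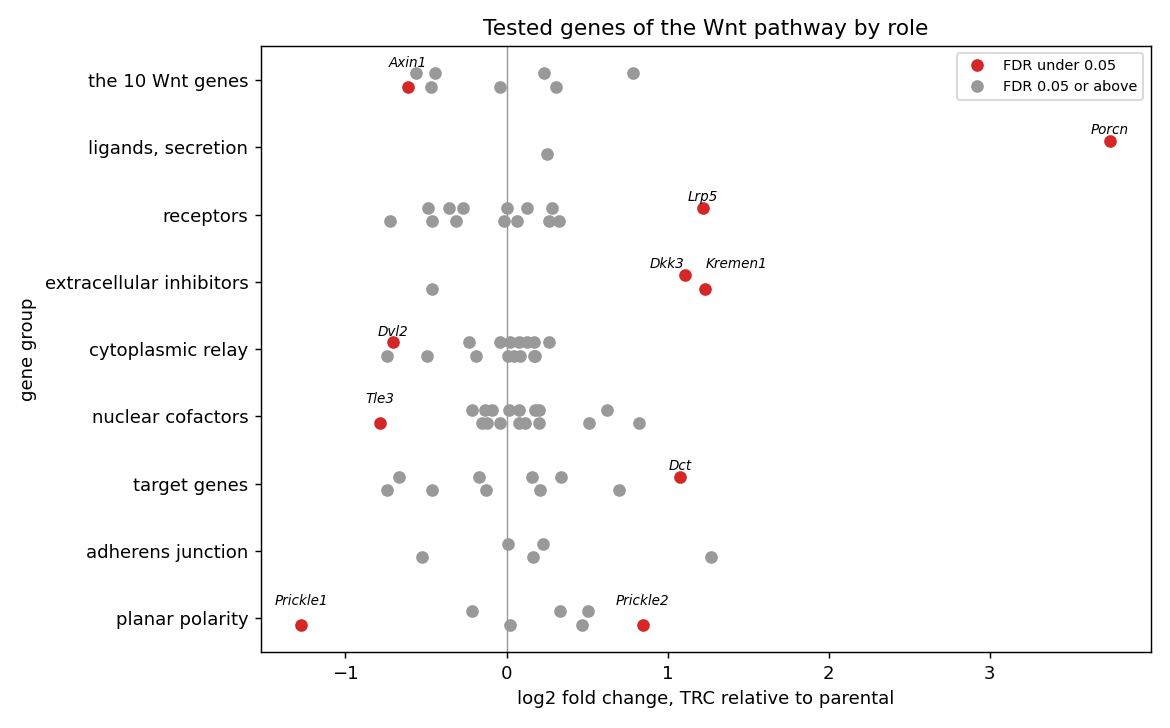
Log2 fold change of TRCs relative to parental cells for each tested gene of the pathway lists, 1 row per group and 1 point per gene, shifted up or down to limit overlap. Red points with names are the genes with FDR under 0.05, and a gene in more than one list is drawn in each. *Porcn*, at 3.75, lies farthest from 0 and passed the filter only through the TRCs.

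Messages of Wnt ligands were scarce. None of the 19 Wnt genes and none of the 4 R-spondin genes, whose proteins raise receptor levels, passed the filter. Of the Wnt genes, 8 had 0 counts in all 4 libraries, and the 19 together summed to 70 and 36 counts in the parental libraries and to 71 and 55 counts in the TRCs. The highest value was that of *Wnt5b*, with 35 counts in parental replicate 1. *Wnt5b* had 11 counts or more and *Wnt9a* 9 counts or more in each library, above the detectable level of 3.

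Messages for the export of Wnt proteins differed in level, with *Wls* present in both groups and *Porcn* below 1 CPM in both parental libraries. *Wls*, which encodes the carrier that brings them to the cell surface, had a mean of 255 ± 5.13 CPM (n = 2, SD) in parental cells and 303 ± 20.9 CPM (n = 2, SD) in TRCs (log2 fold change 0.25, exact test, FDR = 0.505). *Porcn*, which encodes the enzyme that attaches a lipid to Wnt proteins, rose. It had 18 and 5 counts in the parental libraries against 146 and 170 counts in the TRCs, so it passed the filter only through the TRCs. These counts correspond to 0.273 ± 0.186 CPM (n = 2, SD) and 3.80 ± 0.406 CPM (n = 2, SD), which is 3.75 on the log2 scale (SE 0.68, FDR = 1.31e-08 in the exact test). With each library left out the log2 fold change ranged from 3.22, without parental replicate 3, to 4.71, without parental replicate 1. These fits kept the genes of the main filter. When at least 1 CPM was required in at least 3 samples, *Porcn* was removed and not tested. Without any filter its log2 fold change was 3.72.

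Among 18 receptors and coreceptors, 14 were tested, 1 was called higher and 0 lower. Of all genes tested, 8.81% were called higher and 7.05% lower. *Lrp5*, a coreceptor, rose from 45.4 ± 5.99 CPM (n = 2, SD) to 106 ± 34.4 CPM (n = 2, SD), which is 1.22 on the log2 scale (SE 0.28, FDR = 0.000155). Its counts were 1831 and 1752 in the parental libraries, 3389 in TRC replicate 1 and 5417 in TRC replicate 3, and without TRC replicate 3 the log2 fold change was 0.84 (exact test, FDR = 0.0637). Its paralog *Lrp6* had 282 ± 28.5 CPM (n = 2, SD) in parental cells and 283 ± 15.7 CPM (n = 2, SD) in TRCs, with a DESeq2 95% interval of the log2 fold change from −0.38 to 0.39. Of the 10 Frizzled genes, 9 were tested and 0 were called in edgeR's exact and quasi-likelihood tests and in DESeq2's Wald test, and 0 had an unadjusted p under 0.05 in any of these tests. *Fzd7* had 177 ± 49.6 CPM (n = 2, SD) in parental cells and 142 ± 25.3 CPM (n = 2, SD) in TRCs (exact test, FDR = 0.464).

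Of 16 genes for extracellular inhibitors and their receptors, 3 were tested and 2 were called, both higher in TRCs, where 8.81% of all genes tested were called higher. *Dkk3*, a divergent member of the Dickkopf family, rose from 39.4 ± 2.99 CPM (n = 2, SD) to 84.8 ± 15.3 CPM (n = 2, SD), which is 1.11 on the log2 scale (SE 0.23, FDR = 9.33e-05 in the exact test). *Kremen1*, which encodes a transmembrane receptor for Dickkopf proteins, rose from 21.5 ± 0.304 CPM (n = 2, SD) to 50.6 ± 6.85 CPM (n = 2, SD), which is 1.23 on the log2 scale (SE 0.23, FDR = 3.18e-05 in the exact test). Both TRC libraries lay above both parental libraries for both genes. *Dkk1*, a target gene and inhibitor of LRP5 and LRP6, had at most 3 counts in any library.

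In the cytoplasm, 16 of 17 listed genes were tested and 1 was called, where 15.9% of all genes tested were called. *Dvl2*, one of 3 Dishevelled genes that pass the signal from the receptor to AXIN, fell from 42.6 ± 0.514 CPM (n = 2, SD) to 26.1 ± 1.36 CPM (n = 2, SD), which is −0.71 on the log2 scale (SE 0.22, FDR = 0.0291 in the exact test). The call was lost without any 1 of the libraries, with FDR values of 0.0723 without parental replicate 1, 0.147 without parental replicate 3, 0.22 without TRC replicate 1 and 0.14 without TRC replicate 3, while the log2 fold change stayed between −0.77 and −0.67. *Dvl2* overlaps *Acadvl* on the opposite strand, whose counts lay between 1320 and 2225, and the strand setting of the counting is not given in the sources used here. The other 15 genes tested, among them *Gsk3a*, *Gsk3b* and the casein kinase genes, had log2 fold changes between −0.74 and 0.27 with FDR of 0.127 or more.

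Among nuclear cofactors all 17 genes found were tested and 1 was called, beside 15.9% of all genes tested. *Tle3*, a Groucho-type corepressor that binds TCF/LEF factors, fell from 59.1 ± 16.5 CPM (n = 2, SD) to 34.4 ± 7.72 CPM (n = 2, SD), which is −0.78 on the log2 scale (SE 0.29, FDR = 0.03 in the exact test). Its counts were 3148 and 1674 in the parental libraries against 1202 and 1657 in the TRCs, and on the CPM scale the groups did not overlap. Without parental replicate 1 the log2 fold change was −0.46 (FDR = 0.302), without TRC replicate 1 it was −0.59 (FDR = 0.37) and without TRC replicate 3 it was −1.04 (FDR = 0.0555), and the quasi-likelihood test gave an FDR of 0.0839. The other 16 genes, which include the β-catenin coactivators *Bcl9*, *Bcl9l*, *Pygo1* and *Pygo2*, had FDR of 0.124 or more.

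Of 18 further genes known as Wnt targets in various tissues, 10 were tested, 1 was called higher and 0 lower, with 5 higher and 5 lower in TRCs and a median log2 fold change of 0.015. *Dct*, a melanin enzyme listed here as a target in melanocytes, rose from 5014 ± 962 CPM (n = 2, SD) to 10591 ± 797 CPM (n = 2, SD), which is 1.08 on the log2 scale (SE 0.21, FDR = 0.000307 in the exact test and 0.0704 in the quasi-likelihood test). *Dct* is also 1 of the 7 melanocyte markers. All 7 were higher in TRCs, beside 5773 of all 11483 genes tested. Only *Dct* was called, where 8.81% of all genes tested were called higher. The other 6 had FDR of 0.0593 or more in the exact test. For *Tyr*, *Tyrp1*, *Mlana*, *Mitf* and *Sox10* the groups overlapped. The other 9 targets tested, among them *Myc*, *Ccnd1*, *Cd44* and *Mitf*, had log2 fold changes between −0.74 and 0.70 with FDR of 0.227 or more. The feedback genes *Nkd1* and *Sp5* had 0 counts in all libraries, and *Lgr5* had 28 to 38 counts.

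The adherens junction partners of β-catenin were listed as 9 genes, of which 5 were tested. Of these, 0 were called in edgeR's exact and quasi-likelihood tests and DESeq2's Wald test. The exact test called 15.9% of all genes tested. In each test 2 (*Jup* and *Cdh2*) had an unadjusted p under 0.05, beside 28% of all genes in the exact test. Without TRC replicate 3, 1 of the 5 was called, which was *Jup*, the gene of plakoglobin and a close relative of β-catenin, whose log2 fold change over all libraries was 1.27 (exact test, FDR = 0.0685). *Ctnna1*, which encodes α-catenin and was the most abundant of them, had 369 ± 39.3 CPM (n = 2, SD) in parental cells and 372 ± 13.5 CPM (n = 2, SD) in TRCs. The DESeq2 95% interval of its log2 fold change ran from −0.37 to 0.39.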

How the data were processed

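Reads had been trimmed (Trimmomatic) and mapped by the authors to the mouse genome GRCm38 (TopHat2). For each of 4 libraries they deposited unnormalized counts by Ensembl gene, made with htseq-count, for which the sources used here give neither overlap mode nor strand setting. Rows that name no gene (2.95% to 4.25% of alignments on no feature, 0.825% to 0.955% ambiguous and the alignments that were not unique) were removed. Symbols, positions and exon lengths came from GENCODE M21 (GRCm38), which held 37693 of 39179 identifiers.

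Genes with less than 1 CPM in at least 3 samples were removed, which left 11483. TMM factors (0.957 to 1.037) and the exact test with tagwise dispersions were computed with edgeR 4.0.16 (R 4.3.3) and the prior count was 0.125. Standard errors and 95% intervals (1.96 SE) came from DESeq2 1.42.0. FDR denotes Benjamini-Hochberg adjusted p-values over all genes tested. The limit of 3 counts covers counting error only. Levels of different genes were compared as TMM-normalized CPM per kb of merged exons. The fits were tested on simulated data. The genes and lists were chosen with earlier results of these data known, so no test over a list was made. Named from the lists were the called genes and, in a list without one, the gene with the highest mean CPM. *Wls*, *Lrp6*, *Fzd7*, the genes named without a value of their own and those given by counts alone were named after their values were seen. The ratios of *Apc* and of *Axin1* to *Ctnnb1* were chosen in the same way. The alternatives were 2 other filters, 2 other normalizations, the quasi-likelihood test, with the replicate number either ignored or used as a block, DESeq2's Wald test and each library left out in turn, in which the lone library of a group was assumed to vary like the other group.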

Additional observations from a re-analysis of the deposited data

How the results depend on the processing

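Under the 7 alternative filters, normalizations and tests, each of the 8 genes tested kept its direction, and the call of *Axin1* was lost in 3 of them. Over all genes the exact test called 1822, with 1012 higher and 810 lower. edgeR's quasi-likelihood test called 1054 (567 higher and 487 lower) and 0 of the 8 Wnt genes, of which 2 had an unadjusted p under 0.05. Adding the replicate block, the same test called 785 (477 higher and 308 lower) and 0 of the 8, of which 3 had an unadjusted p under 0.05. Of the other pathway genes the exact test called 9, and the quasi-likelihood test called 6 both without and with the block. DESeq2's Wald test called 2036 genes (1090 higher and 946 lower) and 1 of the 8. The deviations of same-numbered libraries correlated with r = 0.027 across genes, so the number was not taken as a pairing. With each library left out, the exact test called from 773 to 1932 genes, from 500 to 1078 of them higher and from 269 to 854 lower, and from 0 to 3 of the 8 Wnt genes, with 3 (*Axin1*, *Axin2* and *Apc*) without parental replicate 1, where 16.8% of all genes tested were called, and 0 without each other library, where 0 to 2 had an unadjusted p under 0.05. The cause of these differences was not tested. The sign turned for some genes that did not pass the test. *Tcf7* ranged from −0.37 to 0.21, *Ctnna1* from −0.0945 to 0.12, *Lrp6* from −0.10 to 0.11 and *Fzd7* from −0.57 to 0.0072 with a library left out. Without the filter the log2 fold change was −0.017 for *Ctnna1* and −0.024 for *Lrp6*, and with library size only it was −0.012 and −0.022. With the longest transcript as length, the share of *Tcf7l1* was 61.5% in parental cells and 70.3% in TRCs, that of *Tcf7l2* 28.3% and 20.5%, and that of *Tcf7* in TRCs 9.03%. *Lef1* and *Rnf43* rest on at most 15 counts in a library, and depth limits what can be said of them.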

Other observations

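Genes of planar cell polarity, the branch of Wnt signaling that works without β-catenin, included 2 called genes that moved in opposite directions among 7 tested of 10, where 15.9% of all genes tested were called. *Prickle1*, which encodes a cytoplasmic polarity protein, fell from 340 ± 20.2 CPM (n = 2, SD) in parental cells to 141 ± 3.99 CPM (n = 2, SD) in TRCs, which is −1.27 on the log2 scale (SE 0.19, FDR = 1.62e-06 in edgeR's exact test), and it passed with each library left out (highest FDR = 0.00222). Its paralog *Prickle2* rose from 13.1 ± 0.238 CPM (n = 2, SD) to 23.6 ± 1.14 CPM (n = 2, SD), which is 0.85 on the log2 scale (SE 0.25, FDR = 0.038). The call of *Prickle2* was lost without parental replicate 1 (FDR = 0.0898), parental replicate 3 (FDR = 0.167), TRC replicate 1 (FDR = 0.285) or TRC replicate 3 (FDR = 0.191), in the quasi-likelihood test (FDR = 0.0543), without the filter (FDR = 0.0892) and with library size only (FDR = 0.0647). Its log2 fold change stayed between 0.78 and 0.89 in all of these. *Celsr1*, a polarity cadherin named after its values were seen, did not pass the filter and had 3 counts in each parental library, 63 in TRC replicate 1 and 24 in TRC replicate 3. *Wnt11*, a ligand of this branch named in the same way, had 0 counts in both parental libraries, 4 in TRC replicate 1 and 12 in TRC replicate 3. The ligand gene *Wnt5b* also did not pass the filter. It had 0.787 and 0.453 CPM in parental replicates 1 and 3, and 0.265 and 0.385 CPM in TRC replicates 1 and 3. These rest on 35 and 16 counts in the parental libraries and 11 and 16 in the TRCs, equal in both replicate 3 libraries. TRCs lay below without overlap in CPM, as for 30.4% of all genes tested.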
